A study of Mus musculus with 2 samples.

Results

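The cadherins and the nonclustered protocadherins are cell adhesion genes, and 34 of them were described here in open chromatin of the mouse cerebral cortex. Members were the protein-coding genes of the GENCODE M21 annotation whose symbol is Cdh or Pcdh followed by a number, leaving out Cdh5, and they made up 34 of 21938 protein-coding genes. DNase-seq, which finds DNA that the enzyme DNase I can cut because it is not packed into closed chromatin, was run on the left cerebral cortex. The donors were female mice, 10 days old, of the hybrid B6CASTF1/J. This hybrid is the F1 of C57BL/6J and CAST/EiJ, so each cell carries 1 genome copy of each strain, and reads were not assigned to a copy here. There was 1 group with 2 libraries, labelled as biological replicates 1 and 2 and as separate animals under the same donor identifier, and neither carried a treatment or an engineered allele.

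Each library came with 2 lists of peaks, which are short regions of dense cutting, and 1 list of footprints, which are shorter stretches that were protected from cutting. The smaller, stricter lists held 60071 peaks in replicate 1 and 70563 in replicate 2, the larger lists 109563 and 121943, and the footprint lists 212785 and 224029. Footprints were not confined to the stricter peaks. The signal of a peak is the deposited value of that library, on a scale that is not given in the sources used here. A promoter is called open below when a stricter peak of each library lay within 500 bp of any annotated transcript start of the gene, and its signal is the highest such peak in each library. Errors are SDs over n = 2 libraries, and with 1 library per animal they join animal and technical spread. In whole tissue, open chromatin in fewer cells and less cutting per cell cannot be told apart. Coordinates are on mm10, counted from 1.

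Cadherins are membrane proteins whose outer domains bind calcium and the same or a related cadherin on the next cell. Classical cadherins, of type I and type II, hold on to the actin skeleton inside the cell through catenins, and in the cortex they take part in sorting neurons, placing layers and matching synaptic partners. Nonclustered protocadherins, chiefly the delta-1 and delta-2 groups, adhere more weakly and signal through other partners, among them the WAVE complex that drives actin branching. Many genes of both families are very long and are expressed in distinct subsets of cortical neurons.

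Promoters were open in 23 of the 34 members, 67.6% against 55.2% of all protein-coding genes. All 5 delta-2 protocadherins were open (Pcdh8, Pcdh10, Pcdh17, Pcdh18 and Pcdh19), as were 10 of 12 type II classical cadherins and 3 of 4 delta-1 protocadherins. The type I classical and the atypical cadherins each had 2 of 5 open, and the remaining protocadherins 1 of 3. Open promoters of members were lower in signal than open promoters in general. Over the 23 open members the median of the mean signal was 1.38, with quartiles at 1.00 and 1.85, and over all 12105 open protein-coding promoters it was 2.89, with quartiles at 1.61 and 4.67. Only Pcdh9, Pcdh10, Pcdh17 and Pcdh8 lay above that general median.

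**Figure D1:**
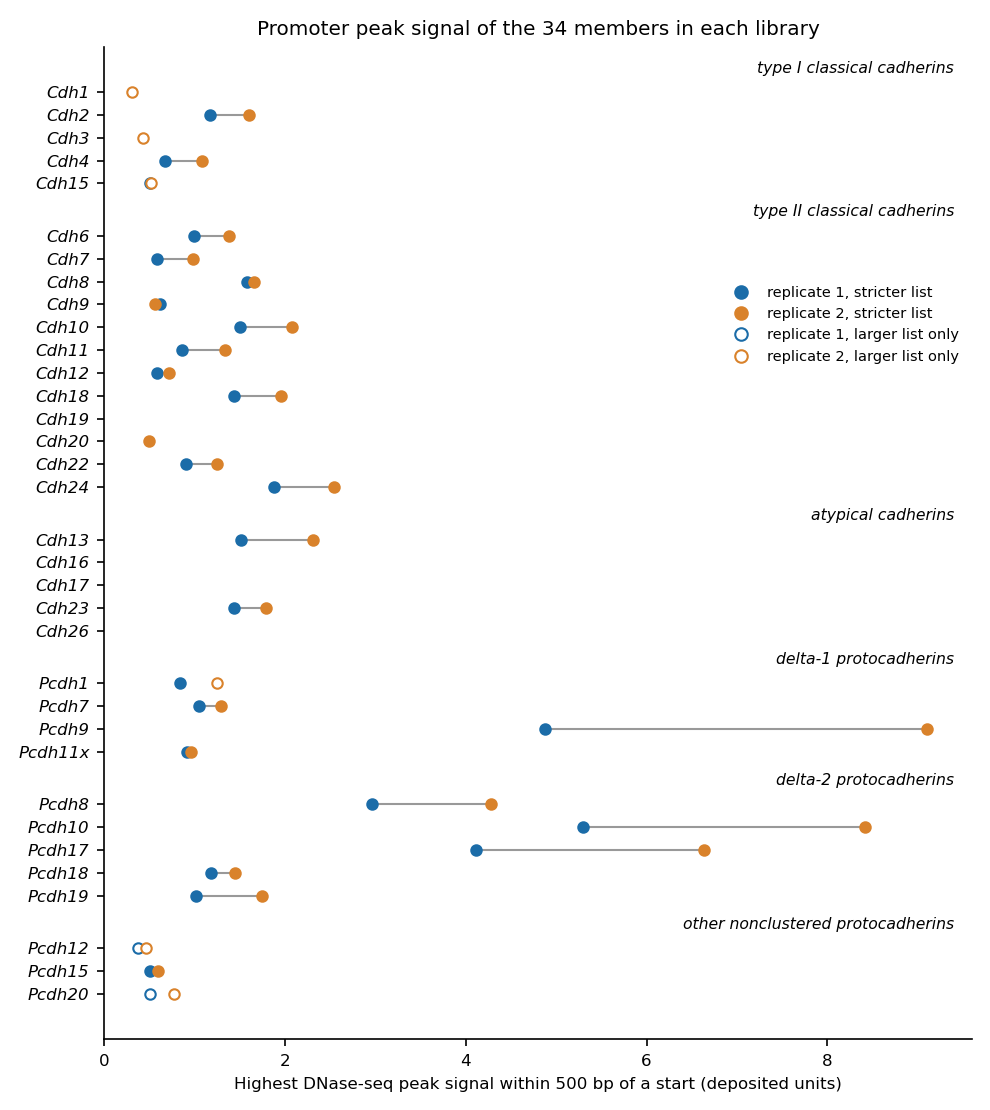
Highest peak signal within 500 bp of an annotated start, in deposited units, for each of the 34 members by role. Filled points are stricter peaks and open circles peaks found only in the larger list, blue for replicate 1 and orange for replicate 2, with a line joining the libraries where both have a stricter peak. Pcdh9, Pcdh10, Pcdh17 and Pcdh8 stand to the right in both libraries, from 2.96 upward, and Cdh16, Cdh17, Cdh19 and Cdh26 have no point.

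Pcdh9 is a delta-1 protocadherin of the developing brain, and its promoter signal was 4.88 in replicate 1 and 9.10 in replicate 2 (6.99 ± 2.99). Pcdh10, a delta-2 protocadherin involved in axon growth and synapse turnover, had 5.30 and 8.41 (6.86 ± 2.20). Pcdh17, a delta-2 member found at corticostriatal synapses, had 4.12 and 6.63 (5.37 ± 1.78). Pcdh8, also called Arcadlin, which takes N-cadherin off the synapse after activity, had 2.96 and 4.28 (3.62 ± 0.93). These signals exceeded those of 92.2%, 91.7%, 81.6% and 61.6% of open promoters, in the order just given. In each library the 4 lay above every other member, since the next, Cdh24, reached 1.88 and 2.55. The ranges of Pcdh9 and Pcdh10 overlapped, with Pcdh10 the higher in replicate 1 and Pcdh9 in replicate 2, so their order was not settled.

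The peak sequences at these 4 starts are shown because they carried the strongest signals of the family. Each is the peak of replicate 1 from the reference genome, written on the gene's strand without any base annotated as untranslated region, with capitals for bases inside a footprint in both libraries. They lie at chr14:93890681-93890980 on the minus strand (Pcdh9), chr3:45378201-45378397 on the plus strand (Pcdh10), chr14:84443341-84443562 on the plus strand (Pcdh17) and chr14:79771313-79771440 on the minus strand (Pcdh8).
Pcdh9: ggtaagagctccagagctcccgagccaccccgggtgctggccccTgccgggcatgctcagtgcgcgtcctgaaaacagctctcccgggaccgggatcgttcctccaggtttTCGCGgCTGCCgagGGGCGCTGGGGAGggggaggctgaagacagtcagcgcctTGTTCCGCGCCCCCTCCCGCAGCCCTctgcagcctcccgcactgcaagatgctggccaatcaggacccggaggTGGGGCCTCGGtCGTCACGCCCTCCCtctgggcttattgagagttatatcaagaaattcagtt
Pcdh10: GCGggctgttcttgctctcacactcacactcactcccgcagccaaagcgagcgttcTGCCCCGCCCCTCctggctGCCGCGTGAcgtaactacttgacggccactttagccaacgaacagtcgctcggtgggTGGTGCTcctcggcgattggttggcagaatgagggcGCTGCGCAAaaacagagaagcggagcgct
Pcdh17: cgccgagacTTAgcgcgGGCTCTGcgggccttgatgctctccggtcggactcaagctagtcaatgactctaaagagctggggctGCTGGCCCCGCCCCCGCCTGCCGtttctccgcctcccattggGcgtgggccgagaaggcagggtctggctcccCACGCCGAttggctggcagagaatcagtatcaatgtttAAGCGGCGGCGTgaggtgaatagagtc
Pcdh8: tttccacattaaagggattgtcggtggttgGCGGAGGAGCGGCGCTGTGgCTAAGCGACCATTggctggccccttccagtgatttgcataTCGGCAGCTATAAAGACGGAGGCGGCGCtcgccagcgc
All 4 were rich in CpG, with 21, 18, 18 and 11 CpG dinucleotides in 300, 197, 222 and 128 bases. The GC-box GGGCGG, searched on both strands, overlapped a capital stretch of Pcdh10 and of Pcdh17. The CCAAT-box GCCAAT, searched likewise, overlapped a capital stretch only in part in Pcdh17 and Pcdh8, and Pcdh9 held a match outside the capitals. In Pcdh17 most of the match lay outside the capitals.

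The other open delta protocadherins were close to or below the family's median. Pcdh19, an X-linked delta-2 gene mutated in an epilepsy of girls, had a promoter signal of 1.01 in replicate 1 and 1.74 in replicate 2 (1.38 ± 0.52). Pcdh18, a delta-2 gene that binds the adaptor Dab1, had 1.18 and 1.45 (1.31 ± 0.19). Pcdh7, a delta-1 gene, had 1.05 and 1.30 (1.17 ± 0.17), and 3 separate groups of its starts within 2.2 kb each had a peak in both libraries. Pcdh11x, the X-linked delta-1 gene, had 0.913 and 0.955 (0.934 ± 0.03). Within each library Pcdh11x was the lowest of these 4, and the ranges of the other 3 overlapped one another.

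Among type II classical cadherins, Cdh24 had the highest promoter signal, 1.88 in replicate 1 and 2.55 in replicate 2 (2.21 ± 0.47), but at different peaks. In replicate 1 the peak was centred 517 bp upstream of the start, and in replicate 2 it was centred 37 bp upstream. Cdh10 had 1.50 and 2.08 (1.79 ± 0.41), Cdh18 had 1.43 and 1.96 (1.69 ± 0.37), and Cdh8 had 1.58 and 1.65 (1.62 ± 0.05). These genes mark subsets of cortical and subcortical neurons and their synaptic partners. Cdh6, which marks particular areas and layers of the young cortex, had 0.989 and 1.38 (1.18 ± 0.28). Cdh11, an adhesion gene of both mesenchyme and neurons, had 0.865 and 1.34 (1.10 ± 0.34), although its peaks were centred 345 and 471 bp inside the gene and the call was lost with a 250 bp window. Cdh22 had 0.899 and 1.25 (1.08 ± 0.25).

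The lowest open type II promoters belonged to Cdh7, Cdh12 and Cdh9. Cdh7 had 0.581 in replicate 1 and 0.978 in replicate 2 (0.779 ± 0.28), and Cdh12 had 0.581 and 0.720 (0.651 ± 0.10). Cdh9, which matches synaptic partners in the hippocampus, had 0.623 and 0.561 (0.592 ± 0.04) and was the sole open member higher in replicate 1. Of the 2 type II genes that were not open, Cdh20 had a stricter peak of 0.493 in replicate 2 alone, and Cdh19, a cadherin of Schwann cells and neural crest derivatives, had no peak in any list. Cdh12 was open at a noncoding transcript 661 kb upstream of its protein-coding starts, near a start of Gm49685. The leading peaks of Pcdh10, Cdh10 and Cdh8 also lay within 500 bp of a start of another gene, 2610316D01Rik, C030047K22Rik and A330008L17Rik, as did that of Cdh24 in replicate 2 (Gm17606), so they cannot be assigned to the member alone. The coding starts of Cdh12 had peaks of 0.364 and 0.371 in replicate 2 and none in replicate 1.

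The promoters of 3 type II cadherins, chosen after their values were seen for a high signal with the same peak leading in both libraries, show how these starts differed from those of the protocadherins above. They are the peaks of replicate 1 at chr15:18818561-18818780 on the plus strand (Cdh10), chr15:23036301-23036462 on the plus strand (Cdh18) and chr8:99416472-99416720 on the minus strand (Cdh8), written and capitalised as before.
Cdh10: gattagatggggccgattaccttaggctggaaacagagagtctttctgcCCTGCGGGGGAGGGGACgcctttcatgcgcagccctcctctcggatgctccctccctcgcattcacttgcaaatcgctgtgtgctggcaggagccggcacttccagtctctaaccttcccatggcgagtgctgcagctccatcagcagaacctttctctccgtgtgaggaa
Cdh18: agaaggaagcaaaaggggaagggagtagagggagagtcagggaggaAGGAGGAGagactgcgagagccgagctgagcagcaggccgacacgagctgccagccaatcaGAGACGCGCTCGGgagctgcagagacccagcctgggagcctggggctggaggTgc
Cdh8: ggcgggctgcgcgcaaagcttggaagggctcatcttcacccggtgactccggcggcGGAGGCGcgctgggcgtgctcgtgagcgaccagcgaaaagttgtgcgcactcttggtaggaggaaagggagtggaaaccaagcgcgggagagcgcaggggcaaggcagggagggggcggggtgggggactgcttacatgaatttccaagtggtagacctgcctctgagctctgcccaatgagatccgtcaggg
In the bases printed, those in footprints of both libraries numbered 17, 22 and 7, against 75, 41, 54 and 60 in Pcdh9, Pcdh10, Pcdh17 and Pcdh8. These counts leave out peak bases in untranslated regions. The Cdh8 peak spans 280 bp, and its unprinted part held a footprint 3 to 15 bp inside the gene in both libraries. The Pcdh8 peak spans 240 bp, of which 128 bases are printed. The printed Cdh stretches held 10, 7 and 19 CpG dinucleotides in 220, 162 and 249 bases. For their length, Cdh10 and Cdh18 were thus poorer in CpG than the printed protocadherin stretches, and Cdh8 lay in their range. Signal was lower in these Cdh peaks as well, and its part in the difference was not tested.

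**Figure D2:**
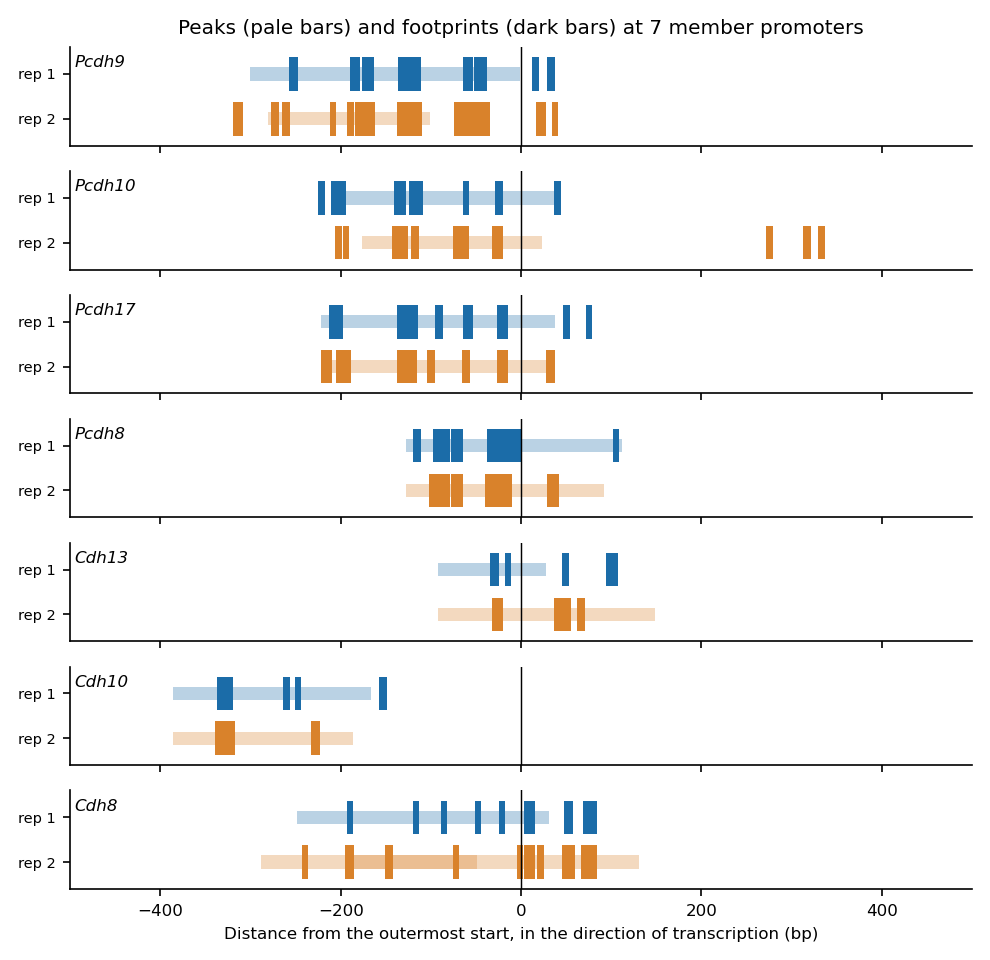
Stricter peaks (pale bars) and footprints (dark bars) within 500 bp of the outermost start of 7 members, by distance from the start in bp in the direction of transcription, with replicate 1 in blue and replicate 2 in orange. In these windows footprints of replicate 1 that overlap one of replicate 2 number 8, 5, 5 and 3 at Pcdh9, Pcdh10, Pcdh17 and Pcdh8 and 2, 1 and 4 at Cdh13, Cdh10 and Cdh8, and the Cdh10 peak lies wholly upstream of its start.

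Of the atypical cadherins, Cdh13 and Cdh23 were open. Cdh13 encodes T-cadherin, which is anchored by a lipid in place of a cytoplasmic tail, and its promoter signal was 1.51 in replicate 1 and 2.30 in replicate 2 (1.91 ± 0.56). Cdh23, a tip-link protein of hair cells in the inner ear, had 1.44 and 1.79 (1.61 ± 0.25), all of it at inner starts of noncoding transcripts. The inner starts with peaks in both libraries lay 9.2, 290 and 390.8 kb from the outermost start of Cdh23, which itself had no peak in any list. Cdh16 of kidney, Cdh17 of liver and intestine, and Cdh26 of epithelia had no promoter peak in any list. Together with Cdh19 these were 4 of 34 members, 11.8%, against 35.0% of all protein-coding genes with no promoter peak in any list.

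Pcdh15, the partner of Cdh23 in the tip link, was the open member of lowest mean signal, with 0.512 in replicate 1 and 0.591 in replicate 2 (0.552 ± 0.06), although Cdh9 was lower in replicate 2. By the mean, 1.82% of all open promoters lay lower. Its leading peak was at a coding start 722.5 kb inside the gene. At the outermost start of Pcdh15 the stricter lists had a peak of 0.576 in replicate 2 alone, and the larger lists had 0.477 and 0.576. A stronger peak, of 1.70 in replicate 1 and 2.08 in replicate 2, was centred 1101 bp upstream of that start. It lay outside the promoter window and was counted as distal. Pcdh20 had peaks in the larger lists only, 0.505 and 0.773.

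Inner starts mattered to 3 calls, those of Cdh18, Cdh23 and Pcdh15. With the outermost start alone, 20 members were open, 58.8% against 49.5% of all protein-coding genes. For Cdh18 the leading start lay 487.4 kb inside the gene, where the starts of a protein-coding and a retained-intron transcript lie 8 bp apart. When only starts of protein-coding transcripts counted, 21 members were open, and Cdh12 and Cdh23 were lost.

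The type I classical cadherins held both the main neural cadherin and the main epithelial ones. Cdh2, N-cadherin, on chromosome 18, had a promoter signal of 1.17 in replicate 1 and 1.61 in replicate 2 (1.39 ± 0.31), at 2 different peaks of its CpG-rich start. Cdh4, R-cadherin, had 0.678 and 1.08 (0.881 ± 0.29). Cdh15, M-cadherin of muscle, had a stricter peak of 0.505 in replicate 1 alone, and its larger lists gave 0.505 and 0.523. Cdh1, E-cadherin, and Cdh3, P-cadherin, had peaks of 0.303 and 0.424 in the larger list of replicate 2 and none elsewhere. The 3 epithelial markers Epcam, Krt8 and Krt18 had no promoter peak in any list, nor did the muscle genes Myod1, Myf5 and Myog. Of all protein-coding genes, 35.0% had none either.

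The larger lists called 27 of 34 members open, 79.4% against 61.0% of all protein-coding genes, by adding Cdh15, Pcdh20, Pcdh1 and Pcdh12. Pcdh1, a delta-1 gene beside Pcdh12 on chromosome 18, had a stricter peak of 0.837 in replicate 1. In replicate 2 the larger list held a peak of 1.24 at another position, and the lowest false discovery rate deposited in the Pcdh1 windows of that library was 0.00538. Pcdh12, an endothelial protocadherin, had 0.374 and 0.462, at a retained-intron start 6.4 kb inside the gene. Of the 5 endothelial and mural markers, Cdh5, Pecam1 and Cldn5 had no promoter peak in any list, beside 35.0% of all protein-coding genes. Pdgfrb had a peak of 0.650 in replicate 1 alone, and Kcnj8 had 0.367 and 0.303 in the larger lists only.

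Promoter class went along with these calls. The ratio of observed to expected CpG in 1001 bp around the outermost start was 0.6 or more in 17 members, and 15 of these were open, 88.2% against 87.0% of all protein-coding genes of that class. The other 17 members lay under 0.6, and 8 of them were open, 47.1% against 28.1%. The CpG-rich members that were not open were Cdh1 and Pcdh1. The 8 open members under 0.6 were Cdh9, Cdh10, Cdh11, Cdh12, Cdh18, Cdh23, Pcdh11x and Pcdh19, and they included Cdh18 and Cdh23, which were open only at inner starts. Pcdh15, counted among the CpG-rich open members by its outermost start, was likewise open only at an inner start, where the ratio was 0.481. Open members had a median CpG ratio of 0.667, ranging from 0.13 to 0.901, and the others 0.261, ranging from 0.112 to 0.73.

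**Figure D3:**
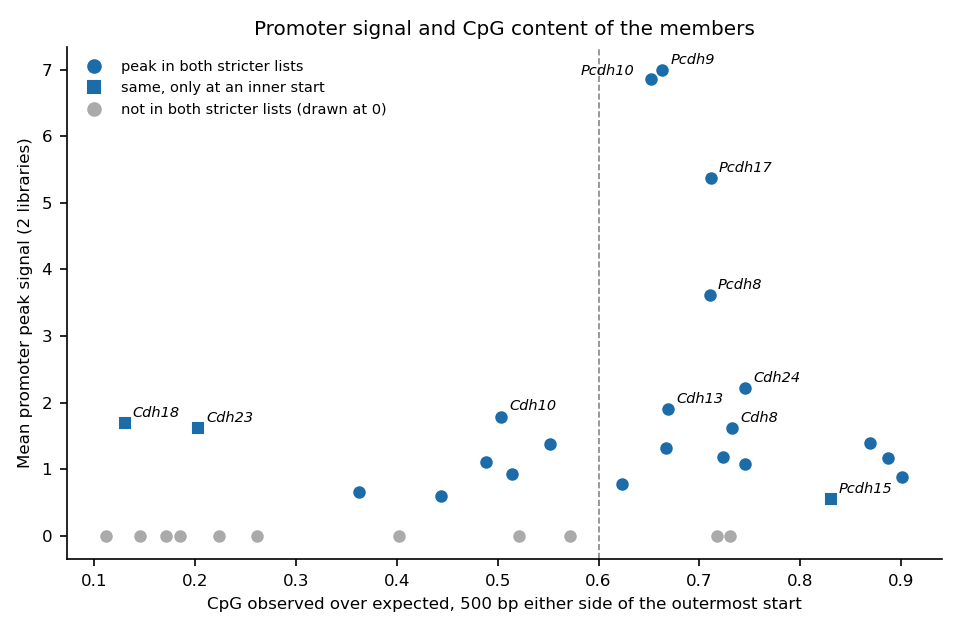
Mean promoter signal of the 2 libraries against the ratio of observed to expected CpG in the 500 bp either side of the outermost start, for the 34 members. Squares are members open only at an inner start, grey points are members without a stricter peak in both libraries, drawn at 0, and the dashed line marks a ratio of 0.6. The highest signals, of Pcdh9, Pcdh10, Pcdh17 and Pcdh8, lie between 0.652 and 0.711, while Cdh4, at the highest ratio of 0.901, has a signal of 0.881.

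Gene length moved with the calls as well. Members with a body over 300 kb were open in 10 of 10 cases, where 82.2% of all such protein-coding genes were, and those of 100 to 300 kb in 8 of 9, where 75.7% of all were. Under 100 kb, 5 of 15 members were open (33.3%), where 52.4% of all such genes were. With the outermost start alone, 7 of the 10 longest members were open, beside 69.7% of all genes over 300 kb, since Cdh18, Cdh23 and Pcdh15 were open at inner starts. The 5 short open members were Cdh24 and the delta-2 genes Pcdh8, Pcdh10, Pcdh17 and Pcdh18. Members over 300 kb had 3 to 14 distinct annotated starts and those under 100 kb had 1 to 14, and the part of the number of starts in these counts was not tested.

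Cdh1 is shown as a start with no stricter peak, chosen after its values were seen. The 250 bases upstream of it, chr8:106603101-106603350 on the plus strand, are given with capitals for the E2-box CACCTG on either strand, the site that repressors of E-cadherin bind in other tissues.
Cdh1: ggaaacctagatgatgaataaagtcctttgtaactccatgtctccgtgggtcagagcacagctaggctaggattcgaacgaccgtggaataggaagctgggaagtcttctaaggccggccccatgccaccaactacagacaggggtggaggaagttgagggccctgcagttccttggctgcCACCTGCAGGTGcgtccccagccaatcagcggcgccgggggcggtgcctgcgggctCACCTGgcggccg
The stretch held 3 matches, 2 of which join in the palindrome CACCTGCAGGTG. An E2-box within 500 bp of the outermost start was present in 44.1% of members and 55.6% of all protein-coding genes, so its presence there is common.

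Motif letters in the same windows of 1001 bp gave few other contrasts. The GC-box was present in 70.6% of members and 60.4% of all protein-coding genes, and the CCAAT-box in 17 of 34 members, 50%, against 31.3%. The ETS motif CCGGAAG was present in 5.88% of members and 19.2% of all, TAATTA in 8.82% and 15.02%, and the AP-1 motif TGANTCA in 14.7% and 18.9%. No member window held a match to the NRF1, CTCF, RE1 or RFX motif, which 2.45%, 1.03%, 0.460% and 0.479% of all windows did. The E-box CANNTG, which also takes in the E2-box, was present in all 34 member windows and in 97.6% of all. Around any start, a GC-box overlapped a stretch footprinted in both libraries, at least in part, in Cdh2, Cdh11, Cdh24, Pcdh10 and Pcdh17. A CCAAT-box did so in Pcdh8, Pcdh17, Pcdh18 and Pcdh20. The share of all protein-coding genes with such an overlap was not counted. A match describes the letters and not a bound factor.

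Footprints were found in the promoter windows of 25 members in both libraries, 73.5% against 58.2% of all protein-coding genes. They were the 23 open members and, in addition, Pcdh1 with 7 and 2 footprints and Pcdh20 with 2 and 3. Over the 34 members there were 152 footprints in replicate 1 and 176 in replicate 2, and 67 of the former (44.1%) met a footprint of the latter. Pcdh9 had the most footprints shared between libraries, 8 of the 8 in replicate 1, with 11 in replicate 2. Pcdh7 had 7 shared of 16 and 20 over all its starts. Pcdh17 had 6 shared of 10 and 12, and Pcdh10 had 5 of 7 and 9. Cdh2, on chromosome 18, also had 5, of 9 and 12. Cdh9, Cdh22 and Pcdh19, though open, shared none, with 2 and 4, 3 and 5, and 5 and 1 footprints.

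Away from promoters, regulatory regions were counted as shared distal peaks, meaning stricter peaks of replicate 1 that overlapped one of replicate 2 and whose midpoint lay over 1 kb from any annotated start. The gene bodies with 50 kb on either side held 155 such peaks, or 158 counting 3 that fall in the windows of both Pcdh1 and Pcdh12. At least 1 was present around 31 of 34 members, 91.2% against 73.8% of all protein-coding genes, whose bodies are shorter, with a median of 17.4 kb against 125.8 kb in members. Introns held 91 peaks, flanks 57 and exons 10. Per 100 kb of window the median member had 0.997 peaks and the median protein-coding gene 1.14. Beside other protein-coding genes with a body 0.8 to 1.25 times as long, 12 members had more than the median, 16 had fewer and 6 had the same number.

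The 6 members with the most peaks held 78 of the 158 (49.4%) in 37.8% of the summed window length. Cdh13 had 21, where genes of like length had a median of 10, and 20 of them lay inside its body of 1041.2 kb. Of its 21, 20 held a footprint shared between the libraries. Cdh23 had 17, against a median of 6, and Cdh4 had 14, also against 6. Pcdh9 had 10, the same as the median of genes of like length, and Pcdh15 had 8 against 12 in a body of 1550.4 kb, the longest of the family. Pcdh17 had 8 against 3, but 4 of these overlapped one another within 1040 bp of an exon, so they made 5 separate regions. Cdh9, Cdh19 and Pcdh18 had none.

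**Figure D4:**
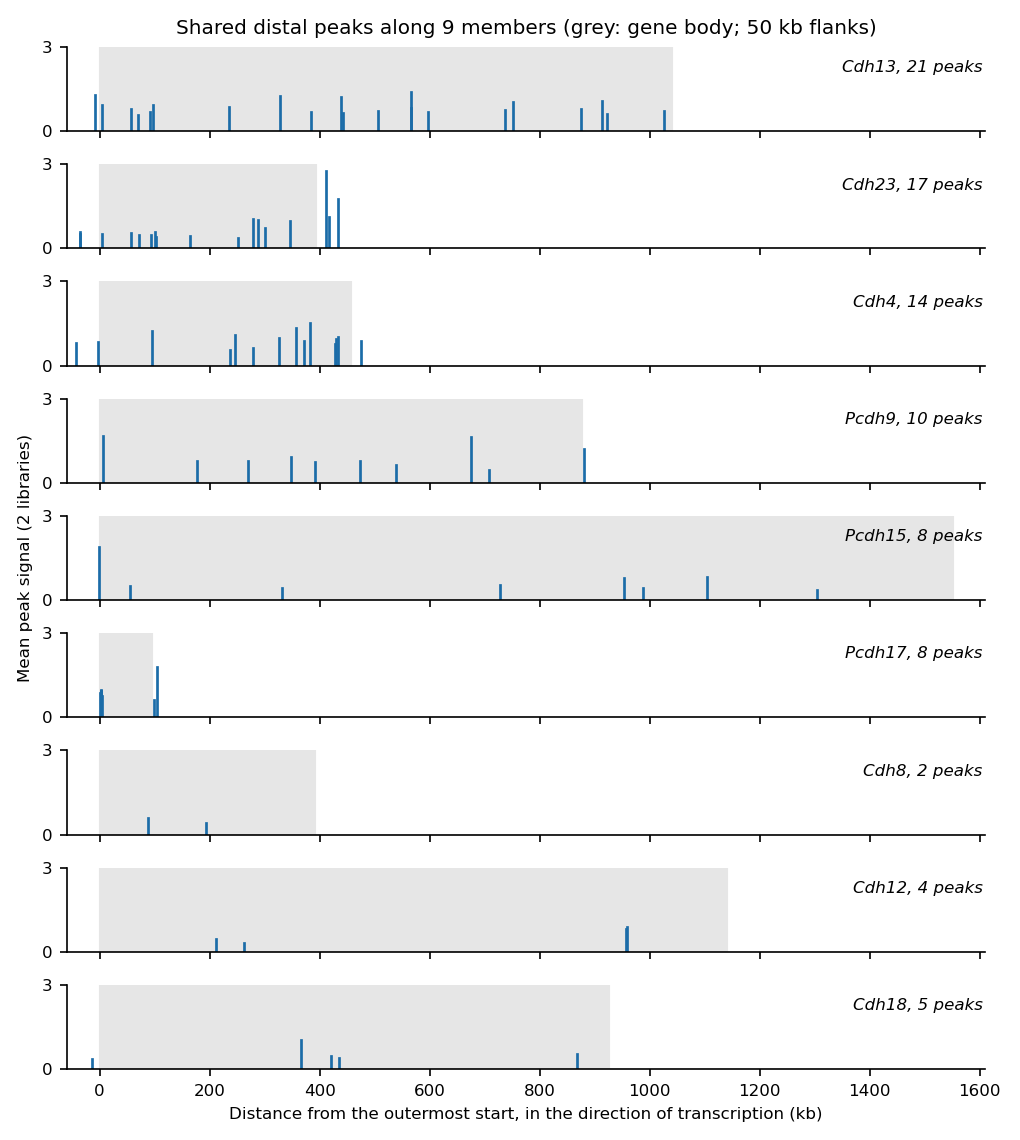
Shared distal peaks along 9 members, by distance from the outermost start in kb in the direction of transcription, with the mean signal of the 2 libraries as height and the gene body in grey. Cdh13 carries peaks through its body, Cdh4 has 1 body peak at 95.1 kb and the rest from 237.6 to 433 kb, and Cdh12 and Cdh18, of 1140.3 and 925.4 kb, have 4 and 5 peaks and Cdh8 has 2.

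Several type II genes combined open promoters with few distal peaks. The 5 members on chromosome 15, Cdh6, Cdh9, Cdh10, Cdh12 and Cdh18, were all open, yet their windows of 3.03 Mb in all held 11 shared distal peaks, or 0.363 per 100 kb. Cdh12 had 4 where genes of like length had a median of 11, Cdh18 had 5 where the median was 10.5, and Cdh8, on chromosome 8, had 2 where it was 6. The open type II genes Cdh22 and Cdh24 went the other way, with 7 against a median of 3 and 2 against 1. By role, type II cadherins had 0.614 peaks per 100 kb of summed window, the protocadherins outside the delta groups 0.694 and delta-1 protocadherins 1.07. The delta-2 protocadherins had 1.67, type I cadherins 2.21 and atypical cadherins 2.31. Within roles the spread was wide, from 0 to 3.13 per 100 kb among type II cadherins and from 0 to 4.09 among delta-2 protocadherins. The 4.09 is that of Pcdh17, and it and the 1.67 count 8 peaks of Pcdh17 that made 5 separate regions, so both would be lower with overlapping peaks joined.

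**Figure D5:**
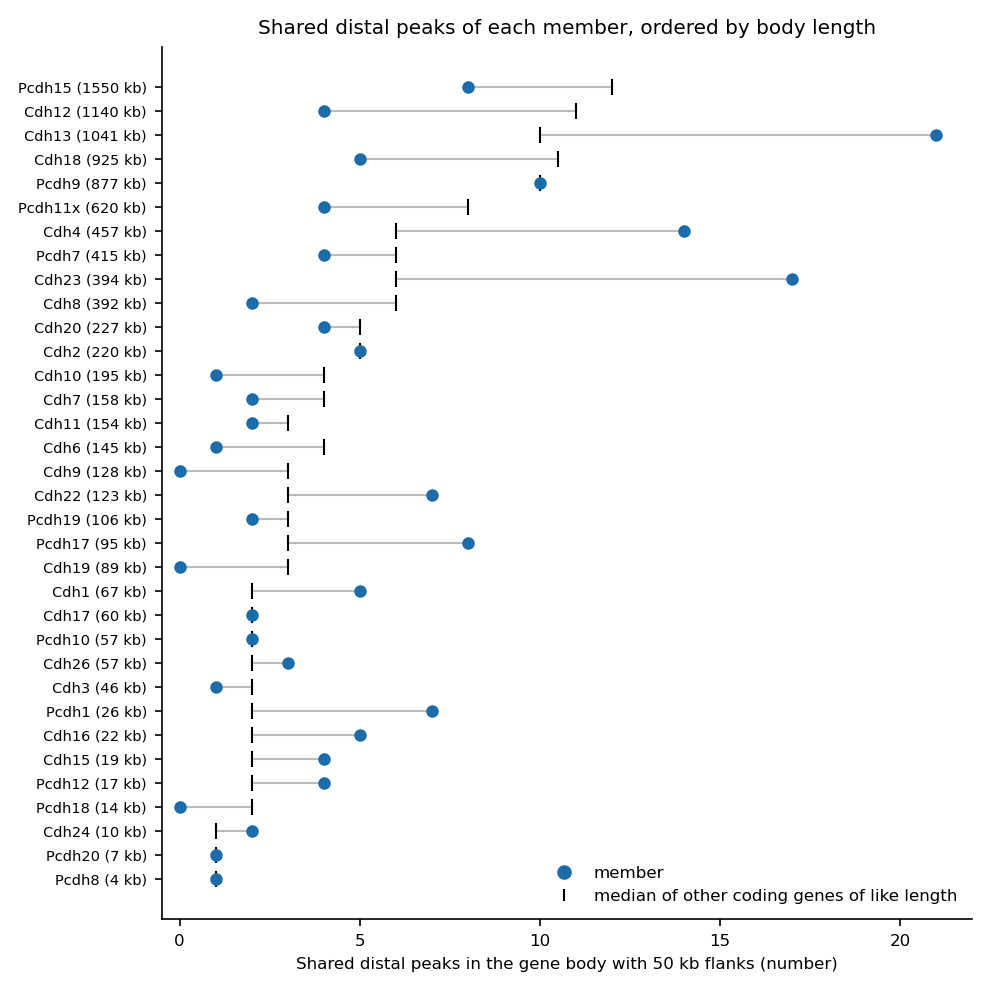
Number of shared distal peaks in the gene body with 50 kb flanks for each member (points), ordered by body length, beside the median of other protein-coding genes of like length (ticks). Cdh13, Cdh23 and Cdh4 lie farthest to the right of their tick, with 21, 17 and 14 peaks, and Cdh12, Cdh18, Pcdh15, Pcdh11x and Cdh8 lie to the left.

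Members without an open promoter also had distal peaks around them. The 11 members that were not open had a median of 4 shared distal peaks, the same as the open members, and 1.91 per 100 kb against 0.789. They were also shorter, with a median body of 46.4 kb against 195.3 kb. Over all members the median per 100 kb was 1.82 for bodies under 100 kb and 0.666 for those over 300 kb. Over all protein-coding genes it did not fall in this way, with 0.993 under 100 kb and 1.18 over 300 kb. The part of length in the contrast was not tested. Cdh16 and Cdh1 had 5 shared distal peaks each, 1 in the gene body and 4 in the flanks, and the 4 flank peaks of Cdh1 all lay inside its neighbour Tango6. Cdh15 had 4, all in flanks and inside other protein-coding genes.

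The 2 strongest shared distal peaks are shown because their signals were in the range of the leading promoters. In the Cdh24 window a peak at chr14:54603381-54603620 reached 3.91 in replicate 1 and 6.09 in replicate 2 (5.00 ± 1.54). It lay inside 4931414P19Rik, 2492 bp from the nearest start of that gene and 37.9 kb from that of Cdh24. In an intron of Cdh10 a peak at chr15:18821461-18821660, 2.6 kb inside the gene and 1232 bp from its nearest annotated start, had 3.54 and 3.93 (3.74 ± 0.28), above the 1.50 and 2.08 of the Cdh10 promoter. The sequences are on the minus strand for Cdh24 and on the plus strand for Cdh10, with capitals for bases in footprints of both libraries.
Cdh24: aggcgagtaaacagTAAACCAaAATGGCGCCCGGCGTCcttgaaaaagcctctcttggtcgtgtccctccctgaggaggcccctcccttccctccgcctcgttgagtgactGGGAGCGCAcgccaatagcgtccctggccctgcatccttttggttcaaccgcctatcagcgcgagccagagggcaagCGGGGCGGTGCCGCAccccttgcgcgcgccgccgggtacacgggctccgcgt
Cdh10: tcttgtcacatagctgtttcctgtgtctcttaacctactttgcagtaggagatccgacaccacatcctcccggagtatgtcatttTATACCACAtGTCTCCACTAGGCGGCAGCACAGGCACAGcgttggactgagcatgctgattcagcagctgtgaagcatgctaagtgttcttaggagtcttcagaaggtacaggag
The peak in the Cdh24 window was rich in CpG, with 24 in 240 bases, and held a GC-box in capitals. The Cdh10 peak held 4 CpG in 200 bases and 2 matches to the E-box, 1 of them partly in capitals.

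Next in signal came peaks near other genes. A peak at chr10:60285781-60285980, in the flank of Cdh23 and inside Psap, had 2.47 in replicate 1 and 3.06 in replicate 2 (2.77 ± 0.42). One at chr5:57715801-57716060, 2 kb upstream of Pcdh7 and nearest to a start of 4932441J04Rik, had 2.17 and 3.18 (2.68 ± 0.72). Another at chr8:122830501-122830700, in the flank of Cdh15 and inside Gm20388, had 2.06 and 3.23 (2.65 ± 0.83). So 4 of the 5 strongest distal peaks lay in flanks, and only that of Cdh10 lay inside a member.

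Distal peaks of members were ordinary in size. Their median mean signal was 0.850, against 0.897 over all 31956 shared distal peaks, and 113 of the 158 (71.5%) held a shared footprint, against 76.0% of all. The median width was 196 bp against 183 bp. The CTCF motif, of the factor that anchors chromatin loops, was matched in 7 of 155 peaks, 4.52%, against 10.6% of all shared distal peaks. The 7 were 2 of Cdh22 and 1 each of Cdh1, Cdh4, Cdh15, Cdh26 and Pcdh12. In addition to the shared peaks, the members' windows held 39 distal peaks of replicate 1 and 82 of replicate 2 that overlapped none of the other library.

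Genes that work with cadherins were open in each of the catenin, WAVE and processing lists, where 55.2% of all protein-coding genes were. All 9 catenins and linkers were open, with a median of the mean promoter signal of 4.21. Jup, plakoglobin, was the highest with 7.13 in replicate 1 and 10.9 in replicate 2 (9.001 ± 2.64), and Afdn, which links nectins to actin, the lowest with 0.892 and 1.53. Ctnnb1, beta-catenin, had 3.34 and 5.56 (4.45 ± 1.57), and Ctnna2, the neuronal alpha-catenin, had 3.09 and 5.34 (4.21 ± 1.60) with 23 shared distal peaks. All 7 genes of the WAVE complex were open, with mean signals from 0.977 in Cyfip2 to 7.11 in Wasf1. Of the genes that process cadherins, Adam10, which sheds them, was open with a mean signal of 4.95, and Furin, which removes the propeptide, with 1.44. The clustered protocadherins, many of whose promoters are chosen at random in single neurons, were open in 4 of 57 genes, beside the same 55.2%, with mean signals from 0.814 to 3.36.

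The 2 libraries differed in level at nearly every open member. Signal was higher in replicate 2 at 22 of the 23, or 95.7%, and at 97.3% of all 12105 open protein-coding promoters. The median log2 ratio of replicate 2 to replicate 1 was 0.47 in members and 0.56 in all open promoters, so the shift was general and the scale of the values may differ between libraries. All deposited signals were whole multiples of a step (100% within 0.01 of a whole number of steps), which was 0.00692 for replicate 1 and 0.00758 for replicate 2. Counted in steps, the median log2 ratios were 0.34 and 0.43. Open member promoters ranged from 74 steps (Pcdh15 and Cdh9) to 1201 steps (Pcdh9). If a step is 1 cut per M tags (M for mega), which the files do not state, depths were 145 and 132 M tags, and the counting error of these promoters was between 2.89% and 11.6%.

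The tissue label was checked against marker genes. Excitatory neurons of the cortex had 4 of 8 markers open, among them Neurod2 with 1.67 and 3.002 and Neurod6 with 1.55 and 2.02, and interneurons had 1 of 4. Astrocytes had 2 of 5, the oligodendrocyte lineage 3 of 5, microglia 1 of 4 and endothelial and mural cells 0 of 5. Meninges had 2 of 4 (Foxc1 and Col1a1) and choroid plexus and ependyma 1 of 2 (Foxj1). The part of other cell types in the members' signals was not tested.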

How the data were processed

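DNase-seq of 2 libraries in 1 group was analysed from the files the authors deposited, which were made, per the file descriptions, from each library's own alignments on mm10 without pooling. Aligner, callers and thresholds are not given in the sources used here. Each deposited signal is 1 value per peak on a scale the authors did not state, read from 4 peak lists. Every footprint had a deposited p-value of 0.01, so footprints were not ranked, and the deposited false discovery rates were listed below 0.05. The smaller peak list of each library served as the stricter one, and within it 1.42% of peaks in replicate 1 and 1.17% in replicate 2 overlapped another peak of the same list.

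Genes, transcript starts and sequence came from GENCODE M21 and GRCm38.p6, the assembly of mm10, whose chromosome lengths hold all peaks. Peaks and footprints overlapped a window, or each other, by at least 1 bp. CpG was the observed over expected ratio in 1001 bp around the outermost start, with classes split at 0.6. Scripts in Python 3.11.15 with numpy 2.4.6, pysam 0.24.0 and matplotlib 3.10.9 were tested on simulated intervals. With 1 group of 2 libraries no test between groups could be made, and shares of members are given beside the same share over all protein-coding genes. The deposited signal precision is limited by the number of libraries.

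The members, the lists of related and marker genes and the motifs were chosen with earlier results of these data known. The rule for names took every member, the 5 with the most shared distal peaks and with the most shared promoter footprints (with ties), and the 5 strongest shared distal peaks. Sequences were those of the 4 strongest promoters and the 2 strongest distal peaks outside chromosome 18, and the other sequences were added after values were seen. Some genes of the lists and 1 sequence are not reported here. Alternatives were other windows, starts, lists, overlaps, flanks and each library alone, and those added after seeing the data were windows and libraries for the larger lists and joined distal peaks.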

Additional observations from a re-analysis of the deposited data

How the results depend on the processing

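Of 31 alternatives for the 5 counts and values that summarise the family, 28 stayed within a set limit. The limit was 1.5 times the reported count, or the SD between libraries for the median signal. Each library alone gives a median that itself enters this SD, so for the median signal those alternatives could hardly pass the limit and say little. The number of open members ranged from 18 with the stronger 50% of peaks of each library to 27 with the larger lists, around the reported 23. The 3 that moved all concerned the 155 shared distal peaks, which became 101 without flanks, 315 with the larger lists and 234 without replicate 1. Leaving out each library in turn gave 193 to 234 distal peaks, 24 to 25 open members and a median promoter signal of 1.17 to 1.61. A midpoint over 5 kb from any start left 106 distal peaks, a flank of 100 kb gave 192, a reciprocal overlap of 50% gave 132, and joining overlapping peaks gave 152, of which Pcdh17 accounted for the whole difference. Members with footprints in both libraries ranged from 19 with a reciprocal overlap of 50% to 27. No paired analysis was possible because there was 1 group. Depth is not given in the sources used here, so a start without a peak is one not called at this depth.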
